A study of Mus musculus with 12 samples.

Results

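Box H/ACA small nucleolar RNAs, named SNORA, were compared between E14TG2a mouse embryonic stem cells after 6 days of retinoic acid and untreated cells of the same line at day 0, with 3 libraries in each group. The series has no untreated stem cells at day 6, so retinoic acid and 6 days of culture cannot be told apart. Changes described below as after or with retinoic acid include both. The members were all 72 SNORA families of the deposited small RNA count table, to which a deposited key assigns 357 transcripts, and 6 of the series' 12 samples carry these measurements. E14TG2a is an established line, so every library came from 1 genotype, and the labels state no dose of retinoic acid and no separate cultures. P-values therefore measure only the spread between these libraries, which may be technical. The other 6 samples are total RNA of C2C12 cells, a mouse myoblast line, before differentiation and as myotubes at day 7.

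An H/ACA snoRNA folds into hairpins whose internal loops pair with a target RNA and place a uridine in the active site of the enzyme dyskerin, which turns it into pseudouridine. Most of these guides act on ribosomal RNA, SNORA73 (U17) acts in cleavage of the ribosomal RNA precursor, and some have no target that is generally agreed on. Most mammalian snoRNAs are cut out of introns of host genes, many of which encode ribosomal proteins and translation factors. Retinoic acid drives embryonic stem cells out of pluripotency, often towards neural fates. The table lists only SNORA families, so markers of pluripotent or neural cells were not measured in these libraries and the labelled cell state was not checked. In RNA of whole cultures, fewer cells of a type and less RNA per cell cannot be told apart.

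The libraries held from 3743671 to 4995747 SNORA counts without and from 1496450 to 2732639 with retinoic acid, so depth was lower in every treated library. Levels are given as CPM, counts scaled to a library total of 1000000 SNORA counts, after TMM scaling, a factor per library that assumes that most families do not change. Each level is therefore relative to the other SNORA families, and a change common to all of them would not be seen. A family was called changed when edgeR's quasi-likelihood test gave a Benjamini-Hochberg adjusted p under 0.05 over all tested families. In log2 CPM over the 70 tested families, retinoic acid replicate 1 correlated more closely with untreated replicate 2 (Pearson 0.885) than with retinoic acid replicates 2 and 3 (0.858 and 0.847), which correlated at 0.911 with each other. The untreated libraries correlated with each other at 0.937 to 0.961. SNORA50 and SNORA35 were not tested. SNORA50 had 0 counts among 19079550 in the 6 libraries, which allows up to 0.157 CPM, and SNORA35 had 29 counts in retinoic acid replicate 1 and 0 elsewhere. Limits from a count of 0 cover counting error only.

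Of 70 tested families, 11 were lower (15.7%) and 5 were higher (7.14%) after retinoic acid, 22.9% in all. Among the 11, SNORA43 fell most, followed by SNORA1, SNORA4, SNORA27 and SNORA44. The 5 that rose, SNORA47, SNORA53, SNORA54, SNORA46 and SNORA30, changed by 3.78-fold at most. Over the tested families the log2 fold change ran from -4.25 to 2.29 with a median of 0.25, and 30 were below 0 and 40 above. The sign of this median turned on 1 library, since it was -0.13 without retinoic acid replicate 1, and it was 0.024 without the most abundant family, SNORA68. The 2 groups of libraries did not overlap in 22 families (31.4%), which included all 16 that were called. The treated libraries were the lower ones in 13 of them (18.6%) and the higher ones in 9 (12.9%).

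**Figure D1:**
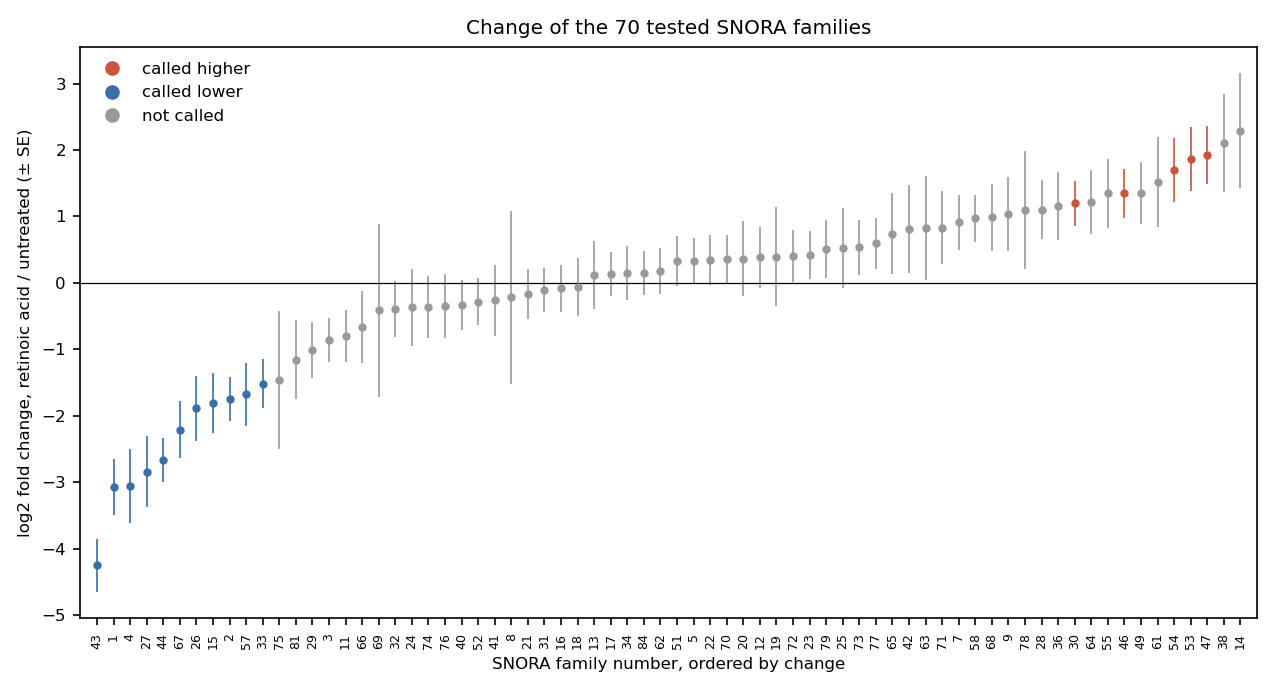
Log2 fold change of retinoic acid against untreated (y axis, with standard error bars) for the 70 tested SNORA families, ordered by change on the x axis; blue families were called lower, red higher and grey neither. The 11 blue families lie below -1.5, while several grey families at the right end, such as SNORA14 and SNORA38, have changes as large as the red ones with wider bars.

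SNORA43, which the lists used here place among guides of 28S ribosomal RNA, was at 4581, 4046 and 4520 CPM in the untreated libraries and at 204, 227 and 257 CPM in the treated ones. The groups lay far apart and each was tight, and the level fell 19.1-fold (95% interval of the log2 fold change -5.15 to -3.36). SNORA1 stood at 12556, 13308 and 12018 CPM before and 2026, 1579 and 895 CPM after, 8.42-fold lower (log2 interval -3.99 to -2.15). The lowest untreated library of SNORA1 was well above its highest treated one.

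SNORA4 was at 11015, 21287 and 13703 CPM without and 3162, 803 and 1560 CPM with retinoic acid. It fell 8.33-fold, and its treated libraries differed among themselves more than those of SNORA43. SNORA27, on the 28S list, changed from 800, 1765 and 1162 CPM to 269, 117 and 132 CPM, 7.18-fold lower. In SNORA4 and SNORA27 the same libraries stood out, with untreated replicate 2 highest in its group and retinoic acid replicate 1 highest in its group. Without retinoic acid replicate 1 the log2 fold change moved from -3.06 to -3.93 for SNORA4 and from -2.84 to -3.54 for SNORA27.

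SNORA44, on the list of 18S guides, was at 29330, 27892 and 43550 CPM before and 4760, 5721 and 5404 CPM after, a 6.34-fold fall. SNORA2, on the 28S list, went from 42515, 58634 and 36497 CPM to 13936, 14590 and 12570 CPM, 3.35-fold lower. In both families the treated libraries were close together and all were below every untreated one. SNORA67, an 18S guide, fell 4.63-fold, from 2900, 2910 and 3338 CPM to 469, 880 and 627 CPM.

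The other 4 families called lower were SNORA26, SNORA15, SNORA57 and SNORA33. SNORA26 was at 125261, 66172 and 46581 CPM without and 11393, 28221 and 24576 CPM with retinoic acid, so its untreated libraries alone spanned a wide range. SNORA15 stood at 4199, 6627 and 4664 CPM before and 2438, 853 and 1117 CPM after. In SNORA15 retinoic acid replicate 1 was the highest treated library, though still below every untreated one. SNORA57, an 18S guide, changed from 839, 564 and 639 CPM to 128, 293 and 218 CPM, and SNORA33, a 28S guide, from 9979, 15334 and 14169 CPM to 5600, 3622 and 4575 CPM. These 4 calls were less firm than those of the families before them. Of the 6 runs that left out 1 library, SNORA26 and SNORA33 were called in 4, SNORA57 in 3 and SNORA15 in 2. Without untreated replicate 1, SNORA26, SNORA15 and SNORA57 were not called (adjusted p = 0.0895, 0.0519 and 0.104), and without untreated replicate 2, SNORA15 and SNORA33 were not (0.0963 and 0.0543). SNORA15, SNORA57 and SNORA33 were not called without untreated replicate 3 (0.104, 0.067 and 0.0696), nor SNORA26, SNORA15 and SNORA57 without retinoic acid replicate 3 (0.0525, 0.0657 and 0.075). Without retinoic acid replicate 1 the log2 fold change of SNORA15 moved from -1.81 to -2.62.

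**Figure D2:**
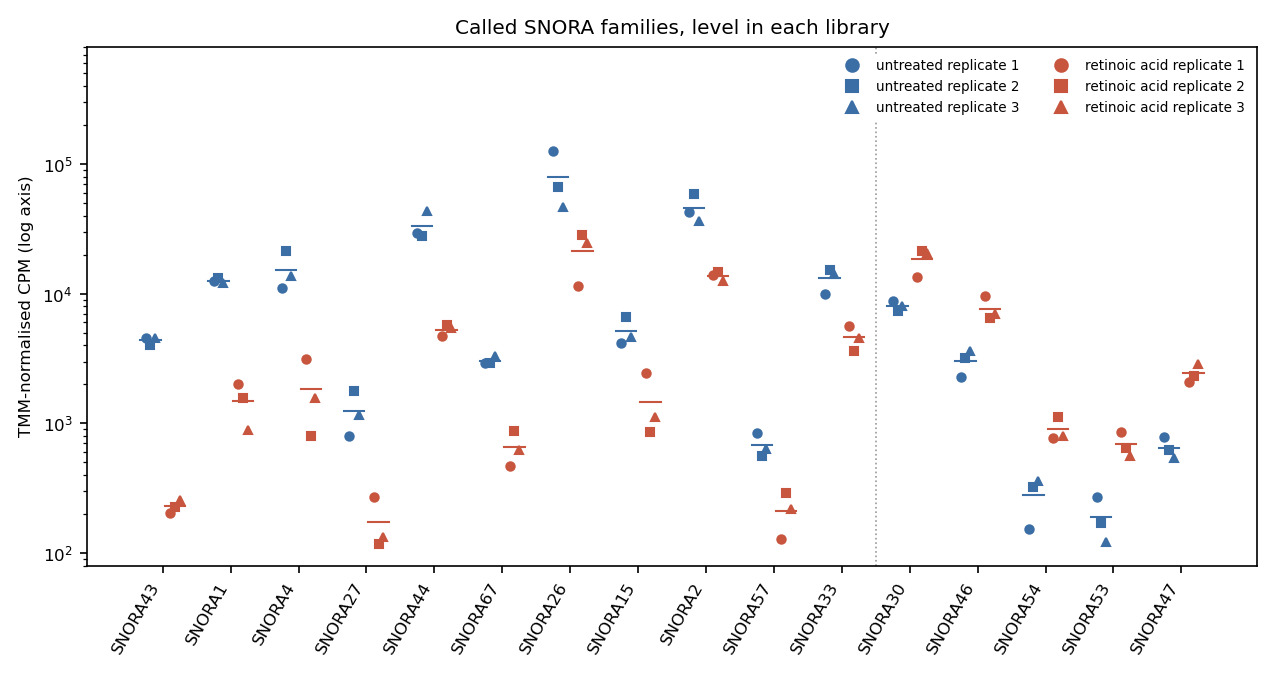
TMM-normalised CPM on a log axis in each of the 6 libraries (points; symbols mark the replicate number) with group means (bars) for the 11 families called lower, left of the dotted line, and the 5 called higher, right of it. In no family do the blue untreated points overlap the red treated points; SNORA43 shows the widest gap, from 4046 CPM or more to 257 CPM or less.

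Among the families that rose, SNORA47 was at 779, 621 and 537 CPM without and 2098, 2338 and 2891 CPM with retinoic acid, a 3.78-fold rise (log2 interval 0.96 to 2.88). SNORA53 went from 271, 171 and 122 CPM to 852, 651 and 560 CPM, 3.66-fold higher. In both, every treated library was above every untreated one. SNORA54, on the 28S list, rose 3.25-fold, from 154, 324 and 357 CPM to 776, 1129 and 806 CPM.

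SNORA46, on the 18S list, was at 2269, 3183 and 3608 CPM before and 9554, 6462 and 7027 CPM after, 2.54-fold higher. SNORA30, on the 28S list, went from 8847, 7328 and 8040 CPM to 13419, 21495 and 20562 CPM, 2.29-fold higher. SNORA30 was the tightest of the 5 among the untreated libraries, while its treated replicate 1 lay below the other treated libraries. The calls of the 5 families that rose also held less firmly than those of the largest falls, with SNORA47 and SNORA53 called in 4, SNORA46 in 3 and SNORA54 and SNORA30 in 1 of the 6 runs without 1 library. Without untreated replicate 2 or 3 the same test called 0 families higher, with 17 families of either direction at an unadjusted p under 0.05 in each case. It called 2 higher without untreated replicate 1, 3 without retinoic acid replicate 2 or 3 and 15 without retinoic acid replicate 1.

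The 6 families that fell most, from SNORA43 to SNORA67, and SNORA2 were called in each of the 15 other settings tried, among them every run that left out 1 library. All 16 called families had the same direction in all 15 settings. Without retinoic acid replicate 1, 20 families were called lower, against 11, and 19 families beyond the 16 were called. DESeq2 called 12 lower and 7 higher, and limma-voom 11 and 5.

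Families on the lists of rRNA guides changed in both directions. Of 20 tested families on the 18S list, 3 fell, namely SNORA57, SNORA67 and SNORA44, and SNORA46 rose, with a median log2 fold change of 0.34 over the list. Of 25 on the 28S list, SNORA54 and SNORA30 rose and SNORA43, SNORA27, SNORA2 and SNORA33 fell, with a median of 0.35. The share called was 20% and 24%, against 22.9% of all families, and the medians lay near the 0.25 of all families. SNORA31 was on both lists and was not called (log2 fold change -0.11). Of 25 tested families on neither list and apart from SNORA73, SNORA47 and SNORA53 rose and SNORA1, SNORA4, SNORA26 and SNORA15 fell, with a median of -0.22. The lists rest on general knowledge of the human namesakes and may be incomplete.

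SNORA73 was at 60696, 41675 and 56969 CPM without and 47454, 104298 and 79344 CPM with retinoic acid. Its groups overlapped, because retinoic acid replicate 1 lay within the untreated range, and it was not called (adjusted p = 0.429). The 95% interval of its log2 fold change, from -0.37 to 1.45, takes in both a small fall and a rise.

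The number of transcripts pooled in a family differed widely, from 18 families of 1 transcript to SNORA17 with 71. Of 16 tested families of 1 transcript, SNORA47, SNORA53 and SNORA54 rose and SNORA1, SNORA27 and SNORA15 fell, which was 37.5% called. Of 35 families of 2 to 4 transcripts 2 rose and 3 fell (14.3%), and of 19 families of 5 or more 0 rose and 5 fell (26.3%). These shares stand beside 22.9% called of all 70 tested families and were not tested against each other. At an adjusted p under 0.05 the 5 rises were in families of 1 or 2 transcripts, since SNORA46 and SNORA30 have 2 each. With so few calls, that does not tie rises to the number of transcripts. SNORA4, SNORA44, SNORA67, SNORA26 and SNORA2 pool 5 to 8 transcripts, so the counts do not say which copy fell.

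Over all 6 libraries together, the 5 families with the highest mean CPM were SNORA68, SNORA13, SNORA28, SNORA73 and SNORA51, and none of them was called. SNORA26, called lower, came next with a mean of 50367 CPM against 50513 CPM for SNORA51. In the untreated libraries alone, SNORA26 ranked behind SNORA68 and SNORA13 only, with a mean of 79338 CPM, and SNORA2, at 45882 CPM, was also above SNORA51 (44754 CPM) and SNORA28 (44375 CPM). SNORA68, on the 28S list, took 12.3%, 11.2% and 9.76% of all SNORA counts in the untreated libraries and 13.6%, 24.2% and 20.4% in the treated ones. SNORA28, on the 18S list, took 5.56%, 3.93% and 4.22% before and 6.54%, 9.91% and 9.73% after. For SNORA68 and SNORA28 these shares were higher in every treated library than in any untreated one, while after TMM scaling the CPM overlapped and the adjusted p was 0.175 and 0.0914. Without retinoic acid replicate 1 both were called higher (adjusted p = 0.047 and 0.0178). SNORA13, an 18S guide, was at 125553, 60552 and 125102 CPM without and 53584, 154115 and 129828 CPM with retinoic acid, so untreated replicate 2 and retinoic acid replicate 1 lay far below the other libraries. Its log2 fold change of 0.12 became negative under DESeq2's scaling and with library size alone. SNORA51 was at 33422, 53720 and 47120 CPM before and 73182, 42988 and 52647 CPM after, and it differed by less than the spread between libraries (log2 fold change 0.33 ± 0.38, SE).

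In 6 families the groups did not overlap but the test made no call. SNORA49 was at 154, 310 and 332 CPM before and 570, 665 and 801 CPM after (adjusted p = 0.0562), and SNORA58, on the 28S list, went from 2242, 2306 and 1378 CPM to 4020, 3849 and 3746 CPM (adjusted p = 0.0682). SNORA64, on the 28S list, and SNORA36, on the 18S list, were higher in each treated library, with log2 fold changes of 1.22 and 1.15 (adjusted p = 0.0914 and 0.118). SNORA3 and SNORA11 were lower in each treated library (-0.86 and -0.80, adjusted p = 0.0887 and 0.161). Without retinoic acid replicate 1, SNORA3 and SNORA11 were called lower, with log2 fold changes of -1.32 and -1.39 (adjusted p = 0.00147 and 0.0041), and SNORA49 was called higher (1.24, adjusted p = 0.0385). In the same run the other 3 moved towards 0, SNORA36 to 0.48 (adjusted p = 0.465), SNORA64 to 0.71 (0.341) and SNORA58 to 0.72 (0.124). Over all 54 families that were tested and not called, the log2 fold change ran from -1.46 to 2.29, with 19 below 0 and 35 above. SNORA69, on the 18S list and singled out after its values were seen, had 513, 652 and 668 counts without and 337, 305 and 0 counts with retinoic acid, and the 0 in replicate 3 allows up to 2.005 CPM before TMM scaling.

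One library in each group deviated from its group mean in a similar way. Over the 70 tested families the deviations of untreated replicate 2 and retinoic acid replicate 1 from their group means in log2 CPM had the same sign in 62 families, with a Pearson correlation of 0.88. This is a description across families, which share libraries and a fixed total of counts. Retinoic acid replicate 1 was the highest treated library in 30 families and the lowest in 32 of the 70.

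Both libraries lay more than 0.5 log2 units below their group means in 9 families, of which 0 were called. They lay above by that margin in 6, of which 2 were called, beside 22.9% of all tested families. A wide spread within groups works against a call, so these counts are no result about the families. SNORA14, on the 18S list, was at 2952, 1086 and 3890 CPM without and 2084, 13301 and 23432 CPM with retinoic acid. It had the highest log2 fold change of all, 2.29, but an SE of 0.87 and an adjusted p of 0.0944, since treated replicate 1 lay within the untreated range. SNORA78, SNORA63, SNORA42, SNORA61, SNORA55, SNORA71, SNORA13 and SNORA8 were the other 8. SNORA78 was at 8966, 1964 and 4467 CPM before and 1704, 10518 and 20701 CPM after, a 4.57-fold range within the untreated group.

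SNORA75 ran the other way, at 1540, 3672 and 1252 CPM without and 1808, 71.6 and 466 CPM with retinoic acid. SNORA4, SNORA27, SNORA19, SNORA32 and SNORA81 were also above the group mean by that margin in both libraries. The families of this paragraph and the one before, other than SNORA4, SNORA27, SNORA13 and SNORA32, were named after their values were seen. With both libraries left out, a choice made after seeing the data, 16 families were called lower and 8 higher, and 15 of the 16 original calls remained. The labels name no batch, and what these libraries share was not tested.

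**Figure D3:**
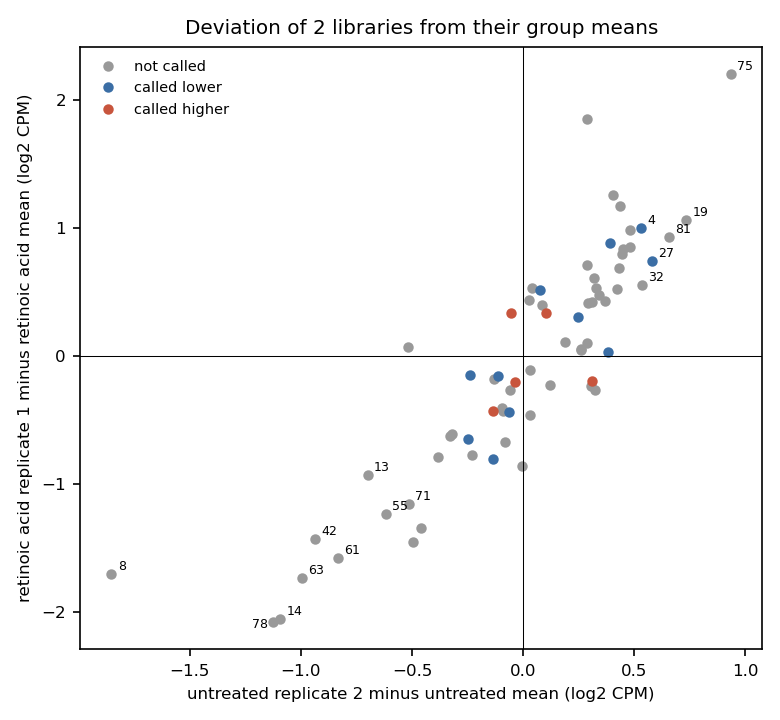
Each point is 1 of 70 SNORA families, placed by the deviation of untreated replicate 2 from the untreated mean (x axis) and of retinoic acid replicate 1 from the treated mean (y axis), both in log2 CPM; numbers give families over 0.5 in the same direction on both axes. Most points follow a rising diagonal, with SNORA8, SNORA78 and SNORA14 at one end and SNORA75 at the other; called families (blue and red) other than SNORA4 and SNORA27 lie within 0.5 of 0 on the x axis.

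RefSeq's annotation of the build GRCm38.p6 has 39 genes with a Snora symbol, all of which share a name with a family of the table. These genes place families in the genome by name only, since the key does not pair transcripts with genes, and a family can have further copies elsewhere. In all, 37 tested families had such a namesake. Each gene lies within the span of another gene, which is called its host here by position alone. Strands were not compared and no exon coordinates were used. Whether a Snora gene is exonic, intronic or on the strand opposite to its host was therefore not determined. Of 9 families with namesakes in a non-coding host gene, SNORA43, SNORA44 and SNORA26 fell and 0 rose. Of 12 in ribosomal protein genes, SNORA33, within Rps12, fell and 0 rose, and of 4 in translation factor genes 0 were called. Snora78 lies within both Rps2 and Snhg9, a non-coding host gene, and its family, which was not called, was classed by Rps2. Of 12 in other protein-coding genes SNORA47 (within Zbed3) and SNORA30 (within Srcap) rose, and SNORA2, SNORA15 (within Cct6a) and SNORA57 fell. Snora57 lies within both Lbhd1 and 5730408K05Rik, and its family was classed by Lbhd1. In all, 9 of the 37 families with a namesake were called, beside 22.9% of all tested families, and the classes were not tested against each other.

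Families with namesakes in the same host gene did not always change alike. Snora43 (chr2:26637847-26637985) and Snora17 (chr2:26639190-26639321) lie 1204 bases apart within Snhg7, a non-coding snoRNA host gene. The log2 ratio of their family counts, which no library scaling affects, was -1.16, -1.50 and -1.68 without and -5.74, -5.91 and -5.87 with retinoic acid. The ratio fell by 4.39 on the log2 scale with no overlap between groups, as SNORA17 itself was at 10210, 11465 and 14529 CPM before and 10928, 13702 and 15071 CPM after and was not called.

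Snhg12, another non-coding host, holds Snora16a (chr4:132309465-132309600), Snora44 (chr4:132309953-132310069) and Snora61 (chr4:132310307-132310368). The log2 ratio of SNORA44 to SNORA16 counts was 2.09, 2.04 and 2.80 before and 0.095, -0.34 and -0.41 after. That of SNORA44 to SNORA61 was 5.52, 6.39 and 5.47 before and 3.28, 1.30 and 0.96 after. The ratio of SNORA44 to both neighbours was lower in every treated library than in any untreated one, while the ratio of SNORA61 to SNORA16 overlapped between the groups.

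Snora2b (chr15:98526348-98526459) and Snora34 (chr15:98519717-98519834) lie within Kansl2, a chromatin regulator gene. The log2 ratio of SNORA2 to SNORA34 counts was 4.73, 4.40 and 4.02 without and 2.12, 2.59 and 2.86 with retinoic acid, a fall by 1.86. SNORA64 and SNORA78, both with namesakes within Rps2, had a ratio that overlapped between groups. Of the namesakes in this pair, Snora78 also lies within the span of Snhg9. These 6 pairs are all those whose namesakes share a host. In a 2-sided exact permutation test of each ratio, the 4 pairs without overlap reached p = 0.1, the smallest that 3 libraries against 3 allow, and 0.15 after Benjamini-Hochberg adjustment over the 6 pairs, so no pair could pass 0.05. Of the families in these pairs SNORA34 and SNORA78 have 1 transcript each. SNORA17 pools 71, SNORA2 8, SNORA61 7, SNORA44 6, SNORA43 3, and SNORA16 and SNORA64 2 each, so their counts may include copies outside the host.

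**Figure D4:**
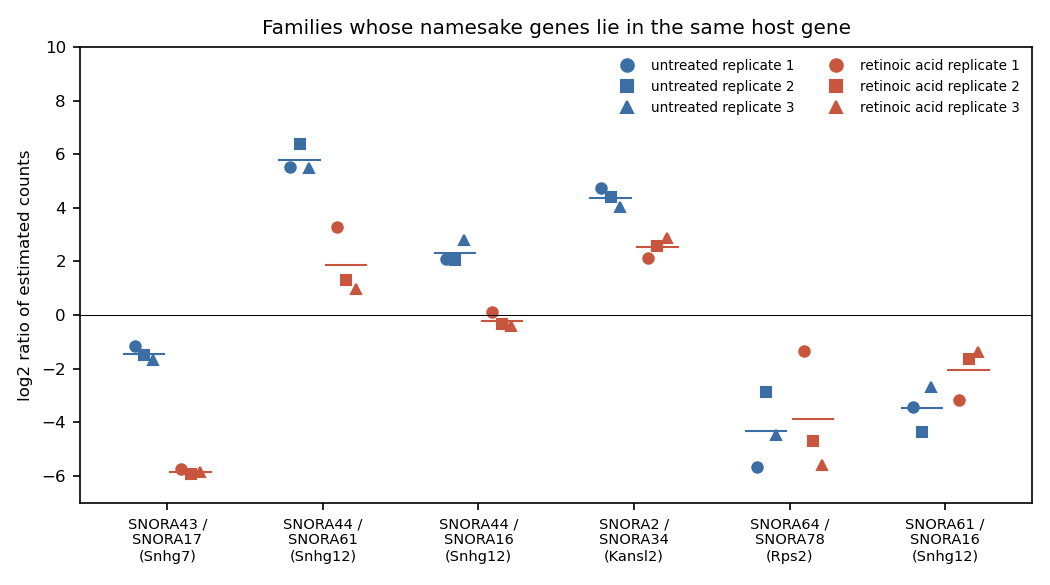
Log2 ratio of estimated counts (y axis) in each of the 6 libraries for the 6 pairs of families whose namesake genes lie within 1 host gene (named in brackets); bars are group means. The untreated and treated points separate for SNORA43/SNORA17, for SNORA44 against SNORA61 and SNORA16, and for SNORA2/SNORA34, and they overlap for the other 2 pairs.

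The authors' deposited normalised counts differ from the estimated counts by a factor that varies by library and, within a library, by family. For most families this factor was near the library's median, but it differed between the groups by over 1.5 times for SNORA26, SNORA32 and SNORA40. Relative to the library median, the factor of SNORA26 was 1.83, 1.43 and 1.22 in the untreated and 0.667, 0.686 and 0.677 in the treated libraries. That of SNORA32, which pools 16 transcripts, was 1.77, 1.45 and 1.23 against 0.698, 0.668 and 0.670. With the authors' factors in the edgeR test, the log2 fold change of SNORA26 moved from -1.89 to -3.14 (adjusted p = 0.00519). SNORA32, not called on the counts (log2 fold change -0.40, adjusted p = 0.54), was then called lower (-1.46, adjusted p = 0.0361). SNORA40 moved from -0.34 to -0.80 and was called in neither (adjusted p = 0.551 and 0.23). How the factors were made is not given in the sources used here.

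**Figure D5:**
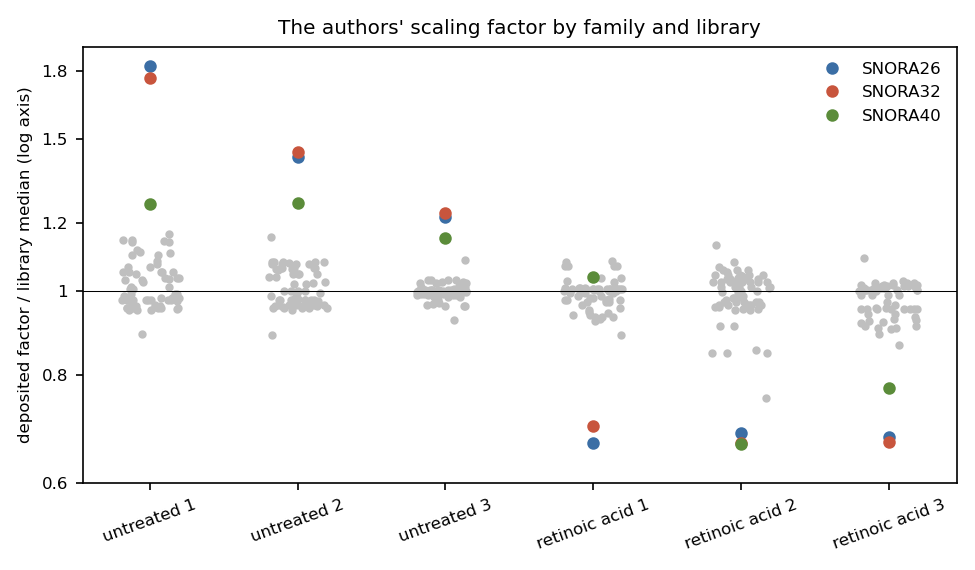
The authors' factor (normalised over estimated count) of each family, divided by the library's median factor (y axis, log scale), in the 6 libraries; grey points are families other than the 3 coloured ones and are spread sideways for legibility. SNORA26 and SNORA32 lie above 1.2 in each untreated library and below 0.7 in each treated one, outside the grey points.

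The C2C12 table, from total RNA without size selection, lists 42 entries with a Snora symbol, of which 22 had 0 counts in every library and 14 were tested. Of all tested genes 40.1% were called in myotubes, 20.5% higher and 19.6% lower. Of the 14, Snora30 was called higher and 0 were called lower, with 3 and 0 at an unadjusted p under 0.05. DESeq2 called 3 of them higher and 0 lower, and edgeR with the replicate number as a block called 2 and 0. The counts of Snora30 were 15, 18 and 7 before differentiation and 18, 35 and 29 after it, a log2 fold change of 1.77 ± 0.50 (SE, edgeR adjusted p = 0.0237). The call of Snora30 was lost without myoblast replicate 3 or myotube replicate 2. Of the namesakes of other families called in the stem cells, 3 were tested in C2C12 cells and were not called. Snora44, Snora26, Snora15 and Snora33 had 0 counts in all 6 libraries and were not tested. Snora47 was at a log2 fold change of -0.27 ± 0.63, Snora2b at -0.81 ± 0.49 and Snora57 at -0.69 ± 0.41 (SE), against 1.92, -1.74 and -1.68 for their families after retinoic acid. One Snora43 entry stood at 24, 4 and 3 counts before and 3, 1 and 1 after differentiation, too few to be tested. The other Snora43 entry had 0 counts in all 6 libraries. The assays, cells and treatments differ, so these values stand side by side and were not tested against each other.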

How the data were processed

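Small RNA, selected by size, was depleted of the 5S and 5.8S ribosomal RNAs and copied by a template-switching reverse transcriptase (TGIRT), per the labels' protocols. The submitters' processing notes name, without roles, build mm10, DESeq2 1.18.1, featureCounts 1.5.1, Salmon 0.12.0 and STAR 2.5.1b. The authors deposited estimated counts per SNORA family, already rounded, and normalised counts (a scaled signal), used only for their factors. The deposited C2C12 table holds raw counts per gene. The key and gene table columns of family names and lengths are of other kinds and are described by the deposited headers.

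Counts were tested with edgeR 4.0.16 under R 4.3.3, with TMM, filterByExpr by group, robust quasi-likelihood F-tests and no covariate. DESeq2 1.42.0 and limma 3.58.1 served as alternatives. SE was the absolute log2 fold change over the square root of F. Log2 CPM for deviations used a pseudocount of 1. No libraries agreed within sampling noise (lowest chi-square per degree of freedom among stem cell libraries 1176). In simulated stem cell tables the test found 70.7% of families changed by 2 and 94.7% of those changed by 3 log2 units. Of its calls 3.77% were false. In a simulation of the C2C12 fit these shares were 75.5%, 93.5% and 7.37%. Simulated counts were drawn independently for each library, without the deviation shared by untreated replicate 2 and retinoic acid replicate 1. The shares therefore describe such tables and are not error rates of the real calls.

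Families and lists were chosen with earlier results of these data known. Named families were all called ones, the 5 with the highest mean CPM, SNORA73, uncalled ones without overlap, and those whose deposited factor differed between groups by over 1.5 times. Namesakes came from RefSeq GRCm38.p6. Snora genes overlap their hosts, and no source used here gives the strand setting of the counting, which leaves their C2C12 counts uncertain. Deviations from the group mean correlated at 0.238, 0.145 and 0.201 between same-numbered C2C12 libraries, so the replicate numbers of the labels were treated as a possible pairing and fitted as a block in an alternative.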

Additional observations from a re-analysis of the deposited data

How the results depend on the processing

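The counts of called families (5 higher, 11 lower) were 3 and 9 with library size alone, 7 and 12 with the authors' factors and 1 and 8 with the replicate block. Left out in turn, single libraries gave 0 to 15 higher and 8 to 20 lower, and untreated replicate 2 with retinoic acid replicate 1 left out together gave 8 and 16 (chosen after seeing the data). The median log2 fold change shifted by -0.10 with the scaling of DESeq2, by -0.23 without the most abundant family and by -0.38 without retinoic acid replicate 1. Same-numbered libraries deviated from their group means with correlations of -0.64, -0.47 and 0.05. The deviation shared by untreated replicate 2 and retinoic acid replicate 1 also enters these values. They therefore cannot settle whether the numbers pair the libraries. The block called 1 higher and 8 lower. For the 29 named families, 371 of 434 values kept their direction and their side of the threshold, 41 lost a call, 14 gained one and 8 changed sign. Of these, SNORA51 was at -0.13 without retinoic acid replicate 1 (range -0.13 to 0.49 over single libraries left out). SNORA13 was at -0.040 with the scaling of DESeq2 and with DESeq2 itself, at -0.039 without the most abundant family, at -0.075 with library size alone, at -0.38 without untreated replicate 2, at -0.18 without retinoic acid replicate 2 and at -0.015 with both doubted libraries left out (range over single libraries -0.38 to 0.28). The ratio of SNORA64 to SNORA78 (0.45) was at -0.21 without untreated replicate 1 and at -0.82 without retinoic acid replicate 1 (range -0.82 to 1.31). Snora genes in C2C12 (1 higher, 0 lower) numbered 3 higher with DESeq2, 2 with the replicate block, and 0 to 1 higher and 0 to 2 lower without single libraries. The cause of these differences was not tested, beyond fewer libraries in the runs that left some out.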
